A study of Mus musculus with 11 samples.

Results

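The Sertoli valve (SV) is the short terminal piece of the seminiferous tubule next to the rete testis (RT), and 10 genes with a higher mean signal in SV than in RT and in the convoluted seminiferous tubule (ST) are described here. The genes are Tnmd, Rasl10b, Klhl30, Lrp11, Bcan, Rtn1, Ncmap, Ptpn5, Asic2 and Mfsd4a, 10 of the 18194 genes that have a probe set of their own on the array. They were chosen by their SV means on these same arrays, so every value that sets SV against RT or ST is given as a description of these genes, without a test. All probe sets annotated to 1 of these symbols alone were followed, which were 16 of 45101. RNA from the 3 regions was hybridised to Affymetrix Mouse Genome 430 2.0 arrays, 4 for SV, 3 for RT and 4 for ST. All mice, in every region, were 7-week-old W/Wv mutants, which carry mutations of the receptor gene Kit and have testes depleted of germ cells. Each array was made from a pool of 20 testes, into which trypan blue had been injected through the efferent ducts before the regions were cut apart by hand. There was no wild-type or untreated group, and whether same-numbered pools of different regions came from the same animals is not stated in the sources used here. The study's methods call it very probable that SV pieces held some RT cells, since the 2 structures are continuous. In such pieces, fewer cells of a type and less RNA per cell cannot be told apart.

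The SV is built mainly of Sertoli cells, the supporting cells of the seminiferous epithelium, and it lies between the tubule where sperm are made and the ciliated and non-ciliated duct epithelia that carry them away. Retinoic acid drives spermatogonia to differentiate, and the SV is known as a place where undifferentiated spermatogonia persist. The 10 genes belong to no common family. They encode proteins of the cell surface and matrix (Tnmd, Bcan, Lrp11), a channel and a transporter (Asic2, Mfsd4a), intracellular regulators (Rasl10b, Ptpn5, Klhl30) and membrane proteins best known from nerve cells and their sheaths (Rtn1, Ncmap).

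Values are MAS5 signals, a linear measure of probe set brightness that the authors scaled per array, and the mean without the highest and the lowest 2% of values was the same on each of the 11 arrays. Between 27.1% and 36.4% of the probe sets of an array had a signal under 32, a level taken here as a floor for dim probe sets. Values with all signals under 32 set to 32 (floored values) are therefore given beside deposited differences that the floor moved by over 1.5 times. The median log2 difference over all probe sets was 0.00 for SV minus ST, −0.11 for SV minus RT and 0.13 for RT minus ST. After removal of the region means, arrays of different regions correlated at 0.069 to 0.190 over all probe sets where both were of replicates 1 and 2 or both of 3 and 4 (20 pairs), and at −0.179 to −0.076 where they were not (20 pairs). The labels name no batch, and values within each of these 2 sets of replicates are given where a result depended on them.

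Promoter windows from 250 bases before to 50 bases after the annotated start were found in RefSeq (GRCm38.p6) for 8 of the 10 genes, and Tnmd, Lrp11, Bcan and Mfsd4a had a single window each. These 4 are printed in full, since they show how unlike the starts of genes with a shared SV pattern can be. They read 5′ to 3′ on the strand of the gene. Capitals mark matches on either strand to 7 motifs, which were the nuclear receptor hexamer AGGTCA, the GATA factor site TGATAA, the SOX factor site AACAAT, the TATA box TATAAA, the CCAAT box CCAAT, the GC box GGGCGG and the E-box CACGTG. No motif is contained in another.
Tnmd, chrX:133850758-133851057, plus strand: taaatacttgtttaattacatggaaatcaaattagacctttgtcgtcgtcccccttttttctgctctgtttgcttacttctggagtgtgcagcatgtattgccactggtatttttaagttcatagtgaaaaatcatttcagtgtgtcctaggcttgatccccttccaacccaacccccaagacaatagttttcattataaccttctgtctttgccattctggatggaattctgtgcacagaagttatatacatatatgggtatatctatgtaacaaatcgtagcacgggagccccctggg
Lrp11, chr10:7589567-7589866, plus strand: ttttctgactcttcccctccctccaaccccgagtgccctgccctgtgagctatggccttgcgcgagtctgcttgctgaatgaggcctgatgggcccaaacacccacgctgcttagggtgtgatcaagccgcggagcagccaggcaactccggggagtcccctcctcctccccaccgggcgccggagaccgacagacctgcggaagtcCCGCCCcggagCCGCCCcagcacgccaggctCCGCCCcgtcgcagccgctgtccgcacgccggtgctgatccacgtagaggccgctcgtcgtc
Bcan, chr3:88000307-88000606, minus strand: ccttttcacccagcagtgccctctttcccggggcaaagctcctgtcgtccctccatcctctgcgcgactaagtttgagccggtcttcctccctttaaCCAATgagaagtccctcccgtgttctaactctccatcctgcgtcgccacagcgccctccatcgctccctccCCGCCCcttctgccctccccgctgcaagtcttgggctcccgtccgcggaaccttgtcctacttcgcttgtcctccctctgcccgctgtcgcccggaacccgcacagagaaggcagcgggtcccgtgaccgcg
Mfsd4a, chr1:132068013-132068312, minus strand: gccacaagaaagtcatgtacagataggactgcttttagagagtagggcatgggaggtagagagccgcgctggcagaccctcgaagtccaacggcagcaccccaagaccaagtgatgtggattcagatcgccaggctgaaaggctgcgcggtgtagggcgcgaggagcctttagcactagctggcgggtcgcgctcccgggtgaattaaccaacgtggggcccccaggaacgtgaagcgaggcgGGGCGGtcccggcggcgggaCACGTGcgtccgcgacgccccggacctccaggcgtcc

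The Tnmd window stood apart from the other 3 in base composition, with 40.0% G and C and 4 CpG dinucleotides, against 68.7% and 27 in Lrp11, 64.0% and 24 in Bcan and 64.3% and 28 in Mfsd4a. The median over all 32851 windows was 52.7% with 7 CpG. None of the 7 motifs was found in the Tnmd window. GC boxes were found in Lrp11 (3 matches), Bcan (1) and Mfsd4a (1), and 35.7% of all windows hold this motif. A CCAAT box was found in Bcan, 153 bases before the start (37.4% of all windows), and an E-box in Mfsd4a, 13 bases after it (7.15%). Over the 13 windows of the 8 genes, no motif was present in all of them, and the GC box was the most frequent with 7 of 13. The nuclear receptor hexamer, at which retinoic acid receptors can bind, was in 2 of 13 windows, of Ncmap and Rtn1, against 16.3% of all windows. These matches are descriptions of letters in a window and not of bound sites.

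The 4 SV arrays lay above all 7 other arrays for each of the 10 genes at the probe set with the highest mean log2 signal, referred to as the leading probe set. This held for 12 of the 16 probe sets, and it held for the same number with floored signals. The background was 0.503% of all 45101 probe sets (0.448% with floored signals), from which nothing is read here because the genes were chosen by this contrast. The mean log2 signal of SV was the highest of the 3 regions in 14 of the 16 probe sets and in all 10 leading ones, and 18.5% of all probe sets have this property. The narrowest gap was that of Mfsd4a, where the lowest SV array was 1.08 times the highest other array, and the next was Asic2, with 1.15 times. The gap was 2.24 times for Rtn1 and 2.04 times for Ncmap. For Rasl10b it was 3.01 times as deposited and 1.08 times with floored signals, so that it was the widest of the 10 under the first reading and about as narrow as that of Mfsd4a under the second.

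**Figure D1:**
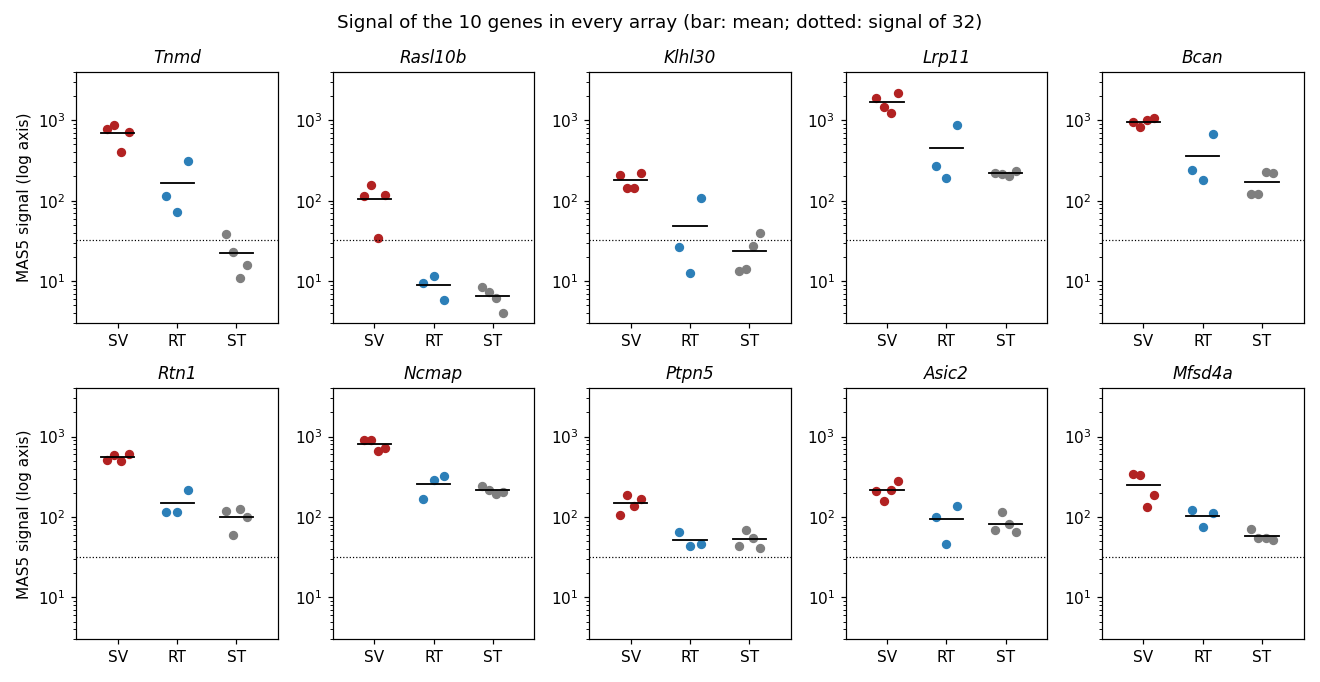
MAS5 signal (log axis) of the leading probe set of each of the 10 genes in every array, with the SV arrays in red, RT in blue and ST in grey, a bar for the mean of each region and a dotted line at a signal of 32. All SV points lie above all RT and ST points in each panel, RT replicate 3 is the uppermost RT point in 7 of 10 panels, and all Rasl10b points of RT and ST lie under the dotted line.

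Tnmd encodes tenomodulin, a transmembrane glycoprotein known as a marker of tendon and ligament. Its signal was 771, 875, 407 and 710.1 in SV replicates 1 to 4, 113, 73.2 and 316 in RT replicates 1 to 3, and 39.0, 22.8, 10.98 and 16.1 in ST replicates 1 to 4. The 3 regions did not overlap, with SV the highest, RT in the middle and ST the lowest. The log2 difference ± SE was 5.06 ± 0.47 for SV minus ST and 2.27 ± 0.51 for SV minus RT, where SE is the standard error of the linear model over all arrays. With floored signals the SV minus ST difference was 4.31, a 19.8-fold ratio, because 3 of the 4 ST arrays lay under 32. Tnmd therefore had the steepest gradient between SV and ST of the 10 genes under both readings.

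Bcan encodes brevican, a chondroitin sulfate proteoglycan best known from the extracellular matrix of the brain. Its leading probe set, 1441899_x_at, gave 959, 813, 1004 and 1063 in SV, 238, 179.8 and 669 in RT, and 121, 121, 225 and 224 in ST. The SV arrays were close together, and RT replicate 3 lay nearer to them than to the other RT arrays. The differences were 2.53 ± 0.35 for SV minus ST and 1.64 ± 0.38 for SV minus RT. The suffix of this probe set marks probes that may also bind related transcripts. The other Bcan probe set, 1416718_at, was dimmer, with 179, 136, 144 and 187 in SV, 78.2, 31.6 and 88.5 in RT and 55.6, 60.5, 25.8 and 60.2 in ST. It had the same order of regions, with differences of 1.75 ± 0.39 and 1.41 ± 0.42.

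Lrp11 encodes a membrane protein of the group related to the low-density lipoprotein receptor. Its signal was 1912, 1469, 1241 and 2196 in SV, 272, 193 and 876 in RT, and 219, 217, 202 and 234 in ST. The ST arrays were nearly level, and the first 2 RT arrays lay around the ST values, while RT replicate 3 lay far above them. SV minus ST was 2.93 ± 0.36 and SV minus RT 2.21 ± 0.39, neither of which moved with the floor.

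Asic2 encodes a subunit of the acid-sensing ion channels, sodium channels of neurons that open when protons bind. It gave 208, 159, 216 and 280.2 in SV, 99.5, 46.4 and 139 in RT, and 68.0, 117, 80.7 and 64.1 in ST. RT and ST overlapped fully, and the highest RT array came close to the lowest SV array. The differences of 1.40 ± 0.34 for SV minus ST and 1.30 ± 0.37 for SV minus RT were the smallest and the next to smallest of the 10 genes in those comparisons.

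Mfsd4a encodes a transporter of the major facilitator superfamily. The array holds 4 probe sets for it, of which 2 had SV above all other arrays. The leading probe set, 1455531_at, gave 346, 330.2, 133 and 188 in SV, 123, 75.2 and 112 in RT, and 71.3, 54.5, 54.3 and 51.5 in ST. SV replicates 1 and 2 were well apart from replicates 3 and 4, and SV minus RT was 1.81 within replicates 1 and 2 and 0.50 within replicates 3 and 4. Over all arrays SV minus ST was 2.01 ± 0.32 and SV minus RT 1.19 ± 0.35. The second probe set, 1436021_at, gave 148, 129, 98.6 and 95.9 in SV, 33.2, 27.0 and 66.8 in RT, and 21.8, 51.1, 13.3 and 14.3 in ST. There the floored differences were 1.69 for SV minus ST and 1.49 for SV minus RT. The remaining probe sets, 1455623_at and 1439351_at, overlapped between regions, with SV signals of 27.1 to 73.7 and of 1.74 to 24.4.

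Rasl10b encodes a small GTPase of the Ras superfamily. Its signal was 116, 157, 34.5 and 119 in SV, 9.42, 11.4 and 5.87 in RT, and 8.56, 7.24, 6.24 and 3.999 in ST. All 7 arrays of RT and ST lay under 32, and SV replicate 3 only just above it. The deposited signals gave 3.89 ± 0.58 for SV minus ST and 3.44 ± 0.62 for SV minus RT. With floored signals both differences were 1.54, a 2.90-fold ratio, so that much of the measured excess came from values under the floor. Among the SV arrays the highest was 4.55 times the lowest, the widest spread of the 10 genes.

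Ptpn5 encodes the striatal-enriched tyrosine phosphatase STEP, which in neurons dephosphorylates MAP kinases and the kinases encoded by Fyn and Ptk2b. Its leading probe set, 1423544_at, gave 104, 189.7, 138 and 169 in SV, 64.9, 44.0 and 45.5 in RT, and 43.6, 69.8, 55.4 and 41.0 in ST. RT and ST were at one level, and SV exceeded both by a like amount, 1.52 ± 0.31 over ST and 1.53 ± 0.33 over RT. The probe sets 1425131_at and 1425130_a_at ranged from 10.7 to 46.5 and from 5.22 to 42.7 in SV and overlapped with the other regions. The excess of Ptpn5 in SV thus rested on 1 of 3 probe sets, the other 2 being mostly under 32.

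Klhl30 encodes a protein of the Kelch-like family, other members of which bring substrates to ubiquitin ligases built on cullin 3. It gave 211, 146, 144 and 220.3 in SV, 26.4, 12.4 and 107 in RT, and 13.5, 14.2, 27.1 and 39.3 in ST. Only RT replicate 3 came near the SV arrays, at 59.4% of the SV mean, while the mean of RT replicates 1 and 2 was at 10.8% of it. SV minus ST was 3.06 ± 0.59 (2.39 floored), and SV minus RT was 2.43 ± 0.64 (1.88 floored).

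Rtn1 encodes a reticulon, a protein that bends the membrane of the endoplasmic reticulum and is abundant in neurons and neuroendocrine cells. Its signal was 512, 590.4, 490.6 and 609 in SV, 117, 115 and 219 in RT, and 118, 59.4, 124 and 99.1 in ST. The SV arrays differed by no more than 1.24 times, the tightest group of the 10 genes, and stood clear of both other regions. The differences were 2.51 ± 0.27 for SV minus ST and 1.94 ± 0.29 for SV minus RT.

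Ncmap encodes a membrane protein of non-compact myelin, known from the Schwann cells that sheathe peripheral nerves. It gave 917, 917, 658 and 715 in SV, 169, 290.1 and 322 in RT, and 244, 214, 192 and 204 in ST. RT and ST overlapped, and SV was above both by 1.66 ± 0.22 (RT) and 1.90 ± 0.21 (ST). Neither difference changed with the floor.

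**Figure D2:**
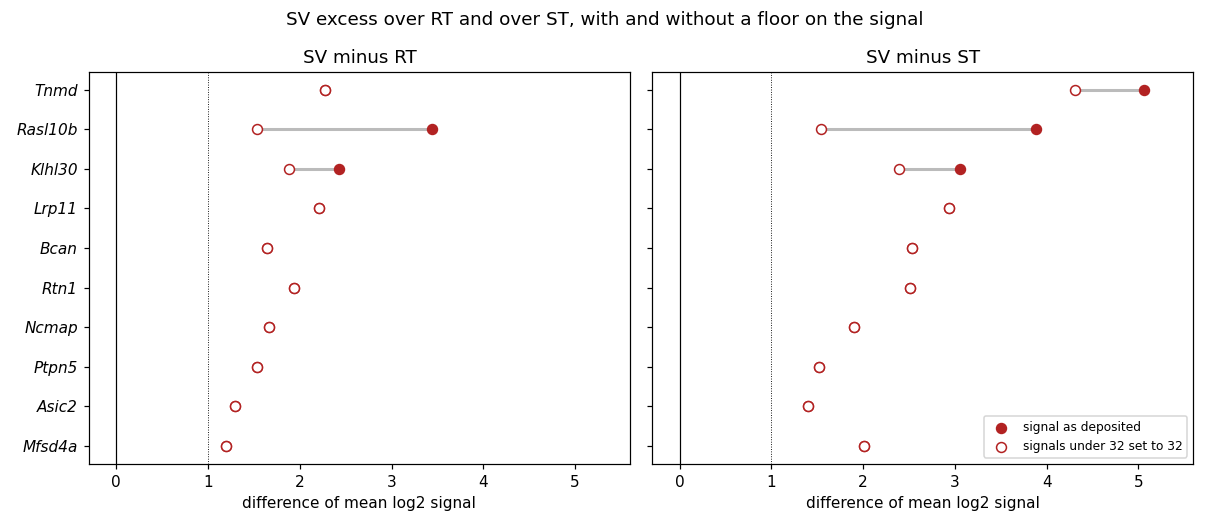
Difference of mean log2 signal of SV minus RT (left) and SV minus ST (right) for the leading probe set of each gene, with filled points for the deposited signals and open points for signals floored at 32, a solid line at no difference and a dotted line at 2-fold. The floor shortens the differences of Rasl10b to 1.54 in both panels, those of Klhl30 to 1.88 and 2.39, and that of Tnmd to 4.31 in the right panel, and the open point covers the filled one elsewhere.

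RT against ST was not a comparison of the rule that chose the genes, and it asked whether the genes had a gradient beyond the SV. The RT and ST signals did enter that rule, each set against SV, so the p-values of this comparison are not fully free of it. Only Tnmd was higher in RT than in ST (log2 fold change ± SE 2.79 ± 0.51, 2.03 with floored signals, limma adjusted p = 0.00111), 1 of 16 probe sets, and none was lower. Over all probe sets, 10.2% were called higher and 5.48% lower in RT than in ST (15.7% in either direction), so that 1 of 16 was no more than the background. Of the leading probe sets, 3 were higher and 0 lower at an unadjusted limma p under 0.05, and 2 and 0 by the methods' t-test. The shares above belong to the stricter adjusted threshold. No share of all probe sets was taken at the unadjusted one, so nothing is read from these counts. For the other 9 leading probe sets the log2 fold changes lay between −0.02 for Ptpn5 and 0.89 ± 0.38 for Bcan, with adjusted p between 0.11 and 0.979. Mean log2 signals of RT were above those of ST in 9 of the 10, and in 7 with quantile normalization or with each array centred on its median, where Ncmap, Ptpn5 and Asic2 were lower in RT. Median centring moved the median of all probe sets to −0.29 for RT minus ST and 0.20 for SV minus RT. Tnmd kept its call in 24 of 25 alternatives, in which the log2 fold change was between 1.61 and 4.57. The call was lost with the methods' t-test after Benjamini-Hochberg adjustment (adjusted p = 0.0517). Without RT replicate 3, the log2 fold change of Tnmd was 2.19 (limma adjusted p = 0.00501). With replicates 1 and 2 against 3 and 4 as a block, Bcan was called higher in RT (1.03, adjusted p = 0.00445), and with the replicate number as a block it was just short of 2-fold (0.99, adjusted p = 0.00854). Without RT replicate 2, Bcan (1.27, adjusted p = 0.0354) and Lrp11 (1.16, adjusted p = 0.0436) were called higher in RT as well.

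The RT arrays were unlike one another for these genes. RT replicate 3 was the highest of the 3 RT arrays in 7 of the 10 leading probe sets, against 42.3% of all probe sets, and it was at least 2 times the mean of RT replicates 1 and 2 in 4 of them, against 10.9% of all probe sets. These 4 were Klhl30 (5.51 times), Lrp11 (3.76 times), Tnmd (3.40 times) and Bcan (3.20 times). Rasl10b and Ptpn5 ran the other way, with 0.563 and 0.835 times. Without RT replicate 3, SV minus RT was 3.29 in place of 2.43 for Klhl30, 2.87 in place of 2.27 for Tnmd, 2.86 in place of 2.21 for Lrp11 and 2.21 in place of 1.64 for Bcan. Within replicates 1 and 2, all 10 genes were over 2-fold higher in SV than in RT. Within replicates 3 and 4, where RT replicate 3 is the only RT array, 4 of the 10 were (Rasl10b, Ptpn5, Rtn1 and Ncmap), and all 10 lay above 0. SV minus ST was over 2-fold for all 10 genes within both sets. With floored signals Rasl10b was at 1.00 within replicates 3 and 4 in both comparisons and no longer over 2-fold, which left 3 of the 10 for SV minus RT and 9 for SV minus ST, while within replicates 1 and 2 all 10 stayed over 2-fold.

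Cell type markers moved with RT replicate 3 as well. The median log2 signal of 12 Sertoli cell markers, relative to their ST mean, was −1.25 in RT replicate 3, and −2.09 and −1.90 in RT replicates 1 and 2. That of 9 rete testis epithelium markers was 5.94 in RT replicate 3, and 6.88 and 6.80 in the other 2. That of 6 efferent duct markers was 2.36, and 4.89 and 4.70. The 10 genes themselves had medians of 1.07 in RT replicate 3, and 0.33 and 0.19 in replicates 1 and 2. The part of these cell types in the values of RT replicate 3 was not tested.

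**Figure D3:**
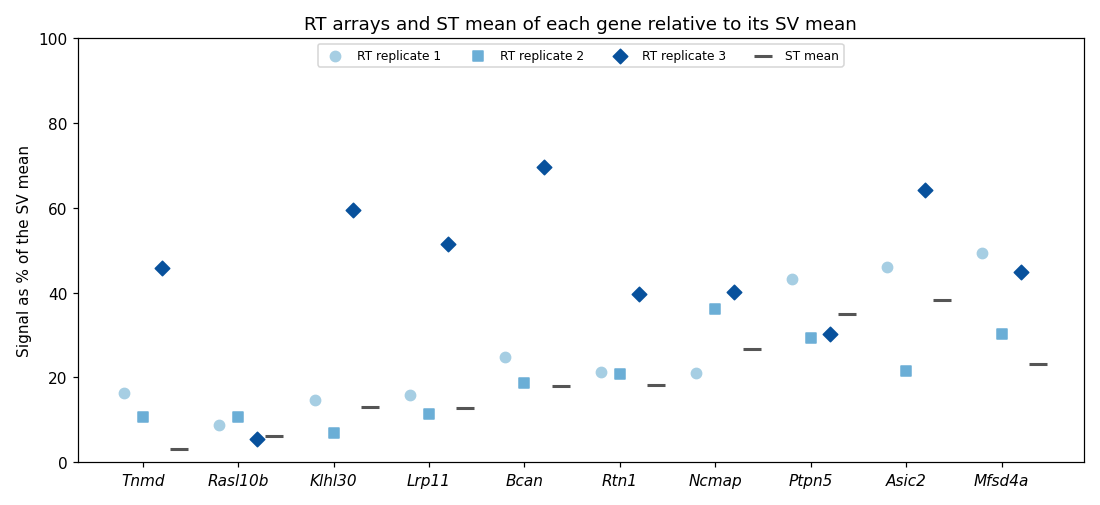
Signal of each RT array, and the mean of ST, as a percentage of the SV mean for the leading probe set of each gene, with circles, squares and diamonds for RT replicates 1, 2 and 3 and a dash for the ST mean. RT replicate 3 reaches 45.7% for Tnmd, 59.4% for Klhl30, 51.4% for Lrp11 and 69.7% for Bcan, where the mean of RT replicates 1 and 2 lies between 10.8% and 21.8%.

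Within the SV, replicate 3 was the lowest of the 4 SV arrays in 7 of the 10 leading probe sets (31.7% of all probe sets), and replicate 4 the highest in 5 (28.7%). SV replicate 3 also had the lowest median in 10 of 13 cell type marker lists and the highest in the other 3, the Sertoli cell, skeletal muscle and spermatogonia lists. For the rete testis markers, the median above the ST mean was 4.53, 3.91, 3.36 and 4.23 in SV replicates 1 to 4, and for Leydig cell markers it was 0.99, 1.02, −0.34 and 0.43. For Sertoli cell markers it was highest in SV replicate 3, at −0.14. The part of these cell types in the values of the 10 genes was not tested. The median of the 10 genes themselves was 2.56, 2.57, 2.40 and 2.67. Rasl10b and Mfsd4a had the widest spread, 4.55 and 2.60 times between the highest and the lowest SV array, and Rtn1 and Bcan the narrowest, 1.24 and 1.31 times.

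Relatives and partners of 9 of the genes were examined next, 112 genes of which 102 have a probe set of their own, to ask whether a whole family had the same pattern. Of these 102, 6 were higher in SV than in ST (5.88%) and 0 were lower, against 2.39% and 0.0769% of all genes taken with 1 probe set each. At an unadjusted limma p under 0.05, 23 relatives were higher and 5 lower, and 22 and 6 by the methods' t-test. Against RT, 10 relatives were higher in SV and 14 lower, against 4.39% and 6.41% of all genes. This split depended on the scaling, with 19 higher and 8 lower when each array was centred on its median. Between RT and ST, 19 relatives were higher and 13 lower in RT, 18.6% and 12.7% of the 102, against 12.5% and 7.34% of all genes. Within replicates 3 and 4, where RT has 1 array, 0 relatives were called in either SV comparison. Medians of the 102 genes were −0.02 for SV against ST and −0.02 for SV against RT, against 0.02 and −0.04 over all genes. The gene itself had a larger difference than all its measured relatives in 6 of 9 families for SV minus RT and in 7 of 9 for SV minus ST. The genes were chosen for large differences of this kind and their relatives were not, so nothing is read from this count.

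The closest relative of Tnmd is Cnmd, which encodes chondromodulin, an inhibitor of vessel growth in cartilage. Its signal was 1670, 910 , 556 and 1008 in SV, 4245, 4096 and 3558 in RT, and 120.2, 101, 41.1 and 87.8 in ST. Cnmd was higher in SV than in ST (3.56 ± 0.34, adjusted p = 9.24e-05) and lower in SV than in RT (−2.04 ± 0.37, adjusted p = 0.00243), while the order of SV and RT was the reverse for Tnmd. Over the 25 alternatives these differences lay between 3.11 and 3.83 and between −2.31 and −1.73. Comp, which encodes a cartilage and tendon matrix protein, exceeded its RT level in SV (1.59 ± 0.49, adjusted p = 0.0477), but all its RT arrays were under 32, the floored difference was 0.27, and the call was lost in 15 of 25 alternatives.

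Among the genes related to the low-density lipoprotein receptor, none was called higher in SV in both comparisons. Vldlr, which encodes the receptor for very-low-density lipoprotein, was higher in SV than in ST (2.41 ± 0.22, adjusted p = 7.12e-05) and lower than in RT (−1.21 ± 0.24, adjusted p = 0.00427). Its call against RT was lost with median centring. Lrp8, which encodes a receptor for reelin, exceeded its RT level in SV (2.62 ± 0.26, adjusted p = 0.000159), with an uncalled difference of −0.41 ± 0.24 from ST. Lrp2, which encodes the endocytic receptor megalin, was lower in SV than in RT (−3.19 ± 0.74, adjusted p = 0.011), a call lost without RT replicate 1 (−2.68, adjusted p = 0.0786) or RT replicate 2 (−2.80, adjusted p = 0.0703). Sorl1 was lower there too (−1.80 ± 0.21, adjusted p = 0.000243), and it encodes a sorting receptor. In all, 2 of 12 relatives were higher and 0 lower than in ST (4 and 0 at an unadjusted limma p under 0.05, and the same by the methods' t-test), and 1 was higher and 5 lower than in RT. Of all genes, 2.39% and 0.0769% were so called against ST, and 4.39% and 6.41% against RT. Lrp4 is counted as higher than in ST and lower than in RT, calls lost in 14 and 10 of 25 alternatives. Lrp5 is counted as lower than in RT, a call lost in 16 of 25.

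Acan was the relative of Bcan that came nearest to its pattern. It encodes aggrecan, the large proteoglycan of cartilage, and gave 206, 213, 179.9 and 215 in SV, 139, 112 and 174 in RT, and 45.1, 100.3, 84.6 and 73.2 in ST. All SV arrays were above all others, as in 0.758% of all genes, with a difference of 1.48 ± 0.27 from ST (adjusted p = 0.0102) and of 0.54 ± 0.29 from RT (adjusted p = 0.265). Tnc, which encodes the matrix protein tenascin C that lecticans bind, was higher in SV than in ST (2.19 ± 0.46, 1.40 floored, adjusted p = 0.0266), and the call was lost in 9 of 25 alternatives, with values between 1.16 and 3.22. Vcan, which encodes versican, was lower in SV than in RT (−1.81 ± 0.43, adjusted p = 0.0126), though not called without RT replicate 2 (−1.75, adjusted p = 0.0593).

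The other families gave mixed pictures. Rasl10a, the nearest relative of Rasl10b and singled out here after its values were seen, was the only other relative with all SV arrays above all others, at 908, 780.3, 858 and 856 in SV, 480.2, 448 and 591 in RT, and 459, 552, 499 and 496 in ST. Its differences were 0.76 ± 0.13 from ST (adjusted p = 0.00617) and 0.76 ± 0.14 from RT (adjusted p = 0.00275), both under 2-fold. Of the small GTPases called, Rasl12 exceeded its RT level in SV (1.03 ± 0.14, adjusted p = 0.000528) and Diras2 was lower in SV than in RT (−1.15 ± 0.20, adjusted p = 0.00211). Rasl12 was just under 2-fold without SV replicate 3 (0.95) or RT replicate 2 (0.98). The Diras2 call was lost with log2(signal + 32), quantile normalization and median centring. Of the reticulon relatives, the endoplasmic reticulum genes Reep1 (2.32 ± 0.32, adjusted p = 0.000534), Reep6 (2.08 ± 0.22, adjusted p = 0.000195) and Reep2 (1.27 ± 0.21, adjusted p = 0.0013) exceeded their RT level in SV, and none of 12 was called against ST (4 higher and 1 lower at an unadjusted limma p under 0.05, 3 and 2 by the methods' t-test). Of the STEP substrates, Fyn (1.30 ± 0.18, adjusted p = 0.000593) and Ptk2b (1.50 ± 0.34, adjusted p = 0.0102) exceeded their RT level in SV, with uncalled differences from ST of −0.46 ± 0.17 for Fyn and −0.73 ± 0.32 for Ptk2b. The Ptk2b call was lost without RT replicate 1 (1.08, adjusted p = 0.0566). Among the channels, Asic4 exceeded its RT level in SV (1.19 ± 0.20, adjusted p = 0.00144), while Scnn1a, which encodes a subunit of the epithelial sodium channel, was higher in SV than in ST (1.86 ± 0.31, adjusted p = 0.0064) and lower than in RT (−1.31 ± 0.34, adjusted p = 0.0199). Stoml3, which encodes a stomatin-like protein of sensory neurons (−2.97 ± 0.71, −1.97 floored, adjusted p = 0.0132), and Scnn1b (−1.42 ± 0.36, adjusted p = 0.0188) were lower in SV than in RT. Without RT replicate 1 neither was called (−2.63 for Stoml3, −1.28 for Scnn1b), nor was Scnn1a (−1.30), and without RT replicate 2 none of them was either (−2.61, −1.52 and −1.20). The Scnn1a call was lost without SV replicate 2 as well (−1.11). With median centring neither Scnn1a nor Scnn1b was called against RT. The Kelch-like relative Klhl12 was higher in SV than in RT by 1.01 ± 0.23 (adjusted p = 0.0094) and Klhl13 was lower (−1.36 ± 0.23, adjusted p = 0.00158), and Klhl12 lay close to the 2-fold limit over the 25 alternatives (0.83 to 1.32), 10 of which did not call it, among them those without SV replicate 3 (0.86), SV replicate 4 (0.97), RT replicate 1 (0.88) or RT replicate 2 (0.90). Of the major facilitator relatives, Mfsd4b1 (−3.95 ± 0.81, −2.41 floored, adjusted p = 0.00564) and Mfsd6 (−1.84 ± 0.18, adjusted p = 0.000159) were lower in SV than in RT.

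**Figure D4:**
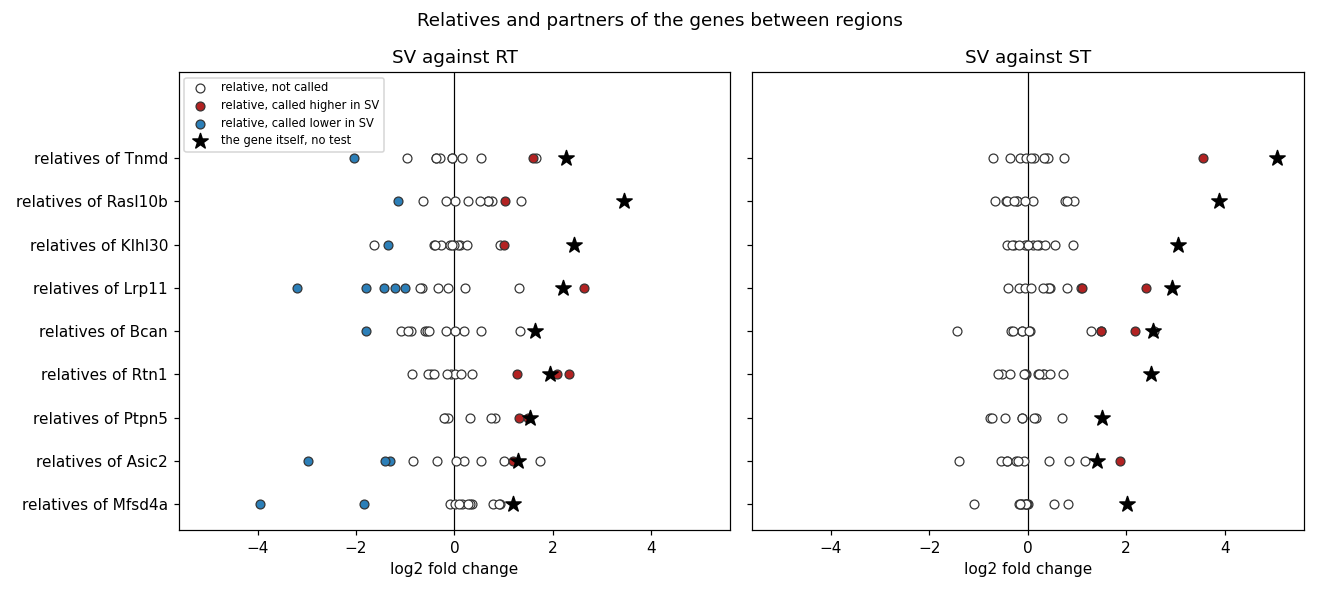
Log2 fold change of SV against RT (left) and SV against ST (right) of the measured relatives and partners of 9 of the genes, 1 row per gene, with red for called higher in SV, blue for called lower, white for not called and a star for the gene itself, which has no test. The star lies right of every relative in 6 of the 9 rows of the left panel and in 7 of the 9 rows of the right panel. Nothing is read from this, since the genes were chosen for these differences.

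Marker lists of 13 cell types, 114 genes of which 107 have a probe set of their own, were used to describe what the pieces held. Over all genes taken with 1 probe set each, 2.39% were called higher and 0.0769% lower in SV than in ST. The shares were 4.39% and 6.41% for SV against RT, and 12.5% and 7.34% for RT against ST. The list of a single cell type is too short to fall clearly below these shares. All 9 rete testis markers were called higher in RT against ST. Of these, 8 were also called higher in SV against ST, among them Dsp (6.12 ± 0.30, adjusted p = 8.34e-07), Pax8 (4.26 ± 0.38, adjusted p = 5.85e-05) and Mal2 (7.60 ± 0.45, adjusted p = 2.42e-06). All ST arrays of Mal2 lay under 32, and its floored difference was 2.85, below the 5.74 of Dsp and the 3.93 of Pax8. All 9 were lower in SV than in RT, where the call of Krt7 was lost on leaving out any SV or RT array (−1.47 to −1.13). Sertoli cell markers were called in 0 of 12 cases between SV and ST (0 higher and 4 lower at an unadjusted limma p under 0.05, 0 and 6 by the methods' t-test), and 7 exceeded their RT level in SV, among them Tsx (2.53 ± 0.39, adjusted p = 0.000929). The markers of the labelled regions were thus present in RT and ST, and those of the rete in SV at levels between RT and ST. All SV arrays were above all others in 0 of the 107 markers, which is near the background of 0.758% of all genes.

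Several of the 10 genes are known from tendon, nerve or muscle, and marker lists of those tissues were examined beside them. The shares of all genes called were again 2.39% higher and 0.0769% lower in SV against ST. They were 4.39% and 6.41% for SV against RT, and 12.5% and 7.34% for RT against ST. Each list is too short to fall clearly below these shares. Schwann cell and myelin markers, the cells from which Ncmap is known, summed to 6152 to 6979 in SV, 7675 to 8715 in RT and 5697 to 7286 in ST, and 0 of 9 were called against ST (1 higher and 1 lower at an unadjusted limma p under 0.05, and the same by the methods' t-test). Against RT, 2 were lower in SV, Erbb3 (−1.29 ± 0.23, adjusted p = 0.00229) and Mbp (−1.27 ± 0.25, adjusted p = 0.00485). Both calls were lost with median centring. Sox10, the defining transcription factor gene of that list, was at 128, 88.1, 60.3 and 113 in SV, 98.6, 99.8 and 53.5 in RT, and 50.01, 134, 95.2 and 103 in ST. Neuron markers summed to 5396 to 6209 in SV, 1049 to 2056 in RT and 4487 to 5739 in ST. None of 12 was called against ST (0 higher and 2 lower at an unadjusted limma p under 0.05, and the same by the methods' t-test), and 3 exceeded their RT level in SV, Uchl1 (2.75 ± 0.35, adjusted p = 0.000328), Tubb3 (2.45 ± 0.25, adjusted p = 0.000159) and Nefm (2.27 ± 0.61, adjusted p = 0.0242). All RT arrays of Nefm were under 32, its floored difference was 0.83, and the call was lost in 6 of 25 alternatives, among them those without SV replicate 3 (2.25), RT replicate 2 (2.26) or RT replicate 3 (1.94). For RT against ST, Uchl1 lay between −2.82 and −1.38 and Tubb3 between −3.10 and −1.70 over the 25 alternatives. In that comparison 4 of the 12 neuron markers and 7 of the 12 Sertoli cell markers were called lower, and 0 higher. Which cells the Uchl1 and Tubb3 signals came from was not tested. Of the fibroblast and tendon list, 1 of 12 was higher in SV than in ST, Cnmd, and the tendon transcription factor gene Scx was at −0.15 (adjusted p = 0.914). Skeletal muscle markers summed to 283 to 394 in SV, 218 to 258 in RT and 278 to 404 in ST, with 0 of 7 called against ST and 0 at an unadjusted limma p under 0.05 or by the methods' t-test. MAS5 signals are never 0, so no marker could be read as absent from such a value. The part of these cell types in the values of the 10 genes was not tested.

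**Figure D5:**
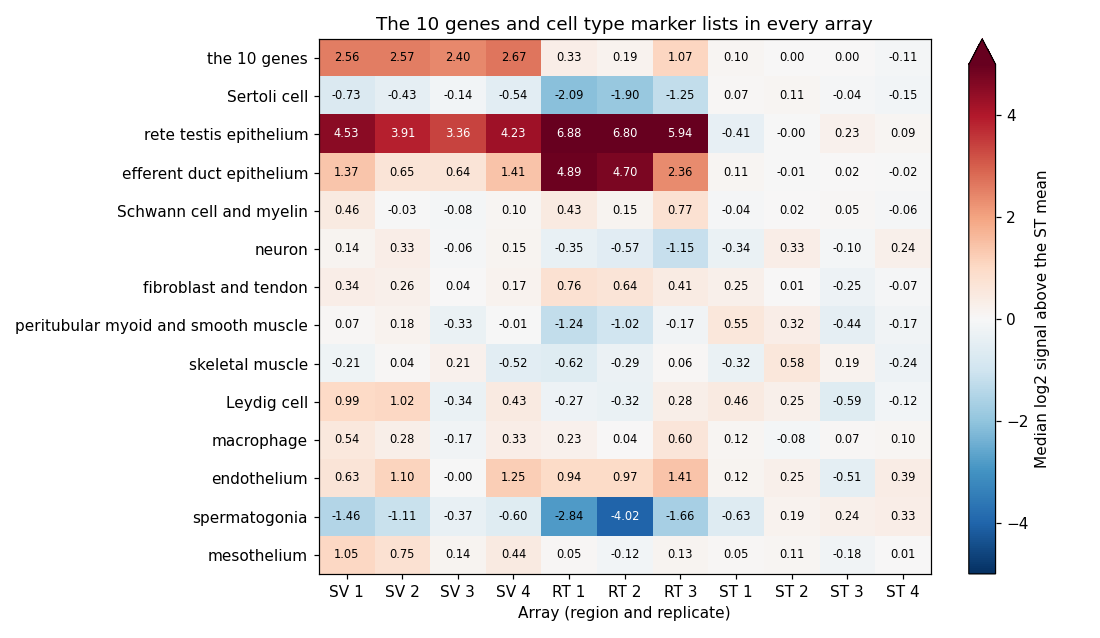
Median log2 signal above the mean of the ST arrays, by array (columns, SV then RT then ST) for the 10 genes and 13 cell type marker lists (rows), with red for higher and blue for lower than the ST mean and the value printed in each cell. The row of the 10 genes is at 2.40 to 2.67 in SV and 0.19 to 1.07 in RT, whereas rete testis markers are highest in RT (5.94 to 6.88) and Sertoli cell markers lowest there (−2.09 to −1.25).

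The nearest measured neighbours on the chromosome were looked up by position alone, 1 on either side of each gene. None of the 20 was called in SV against ST (3 higher and 0 lower at an unadjusted limma p under 0.05, 0 and 1 by the methods' t-test) or in SV against RT (3 and 7, and 2 and 4). Of all genes, 2.39% were called higher and 0.0769% lower in SV than in ST, and 4.39% and 6.41% in SV against RT. A list of 20 is too short to fall clearly below these shares. Median differences of the 20 were 0.08 against ST and −0.35 against RT, where those of all genes were 0.02 and −0.04. The 10 genes lie on chromosomes X, 1, 3, 4, 7, 10, 11 and 12, with Klhl30 and Mfsd4a on chromosome 1 and Rasl10b and Asic2 on chromosome 11.

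Set among all genes, the 10 were near the top of a ranking by the smaller of the floored differences SV minus RT and SV minus ST, taken at the probe set of each gene where it was largest. Tnmd was at rank 2, Lrp11 at 3, Rtn1 at 6, Klhl30 at 8, Ncmap at 11, Bcan at 12, Rasl10b at 18, Ptpn5 at 19, Mfsd4a at 21 and Asic2 at 29 of 18194 genes, a consequence of how they were chosen. The 10 other genes most like them by this measure, over 11 arrays and with no overlap between SV and the rest, were Cyp26a1, Kcna6, Wfdc18, Sema3d, Cadps, Camp, Dusp8, Ins2, Nnmt and Clca3a2. Cyp26a1, which encodes an enzyme that breaks down retinoic acid, was at rank 1 with 392, 359, 206 and 317 in SV, 17.3, 16.4 and 97.3 in RT, and 6.56, 8.59, 9.92 and 7.66 in ST. Like Tnmd, Klhl30 and Lrp11, it had its highest RT value in RT replicate 3. This was so for 8 of the 10 like genes, against 42.3% of all probe sets. The lowest SV value was in SV replicate 3 for 8 of the 10, against 31.7% of all probe sets. The like genes were picked by the values of these same arrays, so nothing is read from these counts. The smaller difference was 2.74 for Cyp26a1, 2.27 for Tnmd and 2.21 for Lrp11, and 1.45 for Clca3a2, the last of the 10 like genes.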

How the data were processed

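Signal intensity was measured on Affymetrix Mouse Genome 430 2.0 arrays, and the deposited intensity values are MAS5 signals that the authors computed and scaled per array before deposit. RNA was extracted with the RNeasy Micro Kit and labelled with the GeneChip 3′ IVT Plus kit. Their methods used Student's t-test with a 2-fold threshold. The genome build of the array design is not given in the sources used here. The members and lists were chosen with earlier results of these data known.

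Log2 signals of all 11 arrays, with no filter or added constant, were fitted in R 4.3.3 by limma 3.58.1 (lmFit, then eBayes in which the prior variance follows mean log2 signal), and p-values were adjusted over 45101 probe sets (Benjamini-Hochberg). Calls needed both a change over 2-fold and an adjusted p below 0.05. Counts at an unadjusted p under 0.05 have no share of all probe sets beside them, and nothing is read from them. The 3 comparisons were SV against ST, SV against RT and RT against ST, and only the last was tested for the 10 genes. Symbols came from the platform annotation, with 34958 probe sets having 1 symbol, 932 several and 9211 none, and probe sets with several were not used to name genes. For each gene the probe set with the highest mean log2 signal was used. Relatives, markers and neighbours were named if called, at most 4 per family and 3 per cell type list, and like genes by rank. Rasl10a, Sox10, Scx, Krt7, Lrp4 and Lrp5 are named outside that rule, chosen after their values were seen. The number of arrays limits the precision, and pools are the replicates, so that p-values measure the spread between pools. The fit was tested on simulated data. Python 3.11.15, pandas 2.3.3 and matplotlib 3.10.9 were used for the rest. Alternatives tried were a floor of 32, log2(signal + 32), quantile normalization, median centring, a replicate block, replicates 1 and 2 against 3 and 4 as a block, either set by itself, no intensity trend, only the regions compared, no dim probe sets, no fold threshold, the methods' t-test, any probe set of a gene and leaving out each array. Genes of the lists without a probe set of their own were not analysed here.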

Additional observations from a re-analysis of the deposited data

Results flagged for a closer look

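Of 32 groups of 4 arrays (SV and ST at the 16 probe sets), 2 held an array far from the other 3, where chance gives about 1 in 20. Both were ST replicate 3. At the dimmer Bcan probe set 1416718_at, ST replicate 3 had a signal of 25.8, against 55.6 to 60.5 in the other ST arrays. At the Mfsd4a probe set 1439351_at, which showed no excess in SV, ST replicate 3 had 2.90, against 19.7 to 23.8. All arrays of this Mfsd4a probe set lay under the floor of 32, as did ST replicate 3 at the Bcan probe set. Neither is a leading probe set, and RT groups of 3 arrays were not examined this way.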

How the results depend on the processing

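For the 10 genes, SV had the highest mean log2 signal in 14 of 16 probe sets, and in 14 to 15 when each array was left out in turn. Tnmd was the single probe set called in RT against ST, with 2 called when replicates 1 and 2 against 3 and 4 were a block (Bcan added), 3 within replicates 3 and 4 (Bcan and Lrp11 added, with RT replicate 3 as the only RT array, assumed to vary like the other regions), 0 with the adjusted methods' t-test, and 1 to 3 over the leave-one-out fits (3 without RT replicate 2).

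Relatives higher in SV than in ST (6) became 14 without a fold threshold, 10 within replicates 1 and 2, 0 within replicates 3 and 4 and 1 with the adjusted t-test, and 4 to 10 on leaving out an array (10 without SV replicate 3). Relatives higher in SV than in RT (10) became 6 with log2(signal + 32), 19 with median centring, 17 without a fold threshold, 0 within replicates 3 and 4 and 5 with the adjusted t-test. Those lower (14) became 8 with median centring, 0 within replicates 3 and 4 and 3 with the adjusted t-test, and 8 to 17 on leaving out an array (9 without RT replicate 1, 8 without RT replicate 2). In RT against ST, 19 higher and 13 lower relatives became 30 and 22 without a fold threshold, 21 were lower with median centring and 9 were higher within replicates 3 and 4.

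Markers lower in SV than in ST (0) became 1 with any probe set, 4 with the replicate block, 3 with the block of the 2 sets, 3 within replicates 1 and 2 and 6 with the t-test, and 0 to 3 on leaving out an array (3 without SV replicate 3, 2 without RT replicate 3). Those higher (14) became 0 within replicates 3 and 4 and 4 with the adjusted t-test. Markers higher and lower in SV than in RT (20 each) became 0 and 0 within replicates 3 and 4 and 3 and 9 with the adjusted t-test, and 13 to 20 were higher on leaving out an array (13 without RT replicate 1). Markers higher in RT than in ST (27) became 17, and those lower (22) became 11, within replicates 3 and 4, where Actg2 was at 0.0745 in place of −1.30. Neighbours higher in SV than in ST (0) became 1 with the replicate block and 3 within replicates 1 and 2, and 0 to 2 on leaving out an array (2 without SV replicate 3). Neighbours higher in SV than in RT (0) became 2 with median centring, 1 with quantile normalization, 1 without a fold threshold, 2 within replicates 1 and 2 and 1 with the t-test. Those lower (0) became 2 with any probe set, 2 without a fold threshold, 2 with the replicate block and 1 within replicates 1 and 2. The cause was not tested.

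Whether replicate numbers pair the pools was not settled. After removal of the region means, same-numbered arrays of different regions correlated at 0.069 to 0.190 over all probe sets. SV with ST gave 0.161, 0.1435, 0.168 and 0.190 for equal numbers, and 0.070 to 0.142 for unequal numbers within a set. RT with SV gave 0.114, 0.100 and 0.148 for equal numbers, against 0.070, 0.074 and 0.178. RT with ST gave 0.082, 0.069 and 0.1495, against 0.077, 0.083 and 0.151. The replicate block changed no call of the 10 genes in RT against ST, with Tnmd at 2.75 and Bcan at 0.99 (adjusted p = 0.00854). The 7 arrays of RT and ST under 32 limit what can be said of the size of the Rasl10b excess, and RT has only 3 arrays.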
